A study of Homo sapiens with 6 samples.

Results

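The enzymes described here conjugate drugs, steroids and bile acids in the liver. They are the sulphotransferases SULT2A1, SULT1A1 and SULT1E1, the UDP-glucuronosyltransferases UGT2B4, UGT2B7 and UGT2B10, and the arylamine N-acetyltransferase NAT1. The 7 genes were chosen by name when the difference between leaf-treated and untreated cells on these same arrays was already known. Their differences are therefore given as a description, and nothing is read from a test of them. A transcript cluster, which is the set of probes that the array summarises as 1 transcript, was taken for a gene when the platform annotation gave that symbol alone. Each gene had 1 such cluster and none was at 0, so the 7 genes stood for 7 of 19291 tested clusters and for 7 of 18372 tested genes.

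The arrays measured RNA of HepG2, a human hepatoma line that keeps many functions of hepatocytes but is a single tumour line. In the leaf-treated group (3 arrays) the cells received 50 µg/ml of a water extract of Barringtonia racemosa leaf for 24 h. The untreated group (3 arrays) received no extract, and no vehicle is named for it. Both groups grew in DMEM with foetal bovine serum, penicillin and streptomycin.

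In conjugation a polar group is joined to a lipophilic compound, which can then leave the cell in bile or urine. Sulphotransferases take the sulphate from the donor PAPS in the cytosol. UDP-glucuronosyltransferases sit in the endoplasmic reticulum and take glucuronic acid from UDP-glucuronic acid, which is made in the cytosol and carried inside. NAT1 transfers the acetyl group of acetyl-CoA to arylamines. In liver, SULT2A1 is the main sulphotransferase of dehydroepiandrosterone and bile acids, and the UGT2B enzymes act on steroids, bile acids and drugs.

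Values are log2 expression values as deposited, so a difference of 1 is a change of 2 fold. The arrays carry no detection calls, and olfactory receptor genes, which liver cells are not known to use, served as a stand-in for background. Over 357 such clusters the 90th percentile was 3.11 to 3.30 on the leaf-treated arrays and 3.10 to 3.18 on the untreated arrays. All 15 hepatocyte secreted protein genes that were listed, among them ALB and TTR, had a mean above this line. So had 4 of 8 measured fibroblast genes, 3 of 5 squamous epithelial genes and 4 of 5 leukocyte genes. Of the fibroblast genes COL1A1 had the highest mean, at 4.43 in leaf-treated and 4.19 in untreated cells. Among the replicates, leaf-treated array 2 lay farthest from the other arrays of its group. Its mean absolute distance was 0.20 on the log2 scale, against 0.16 and 0.17 for leaf-treated arrays 1 and 3 and 0.11 to 0.13 for the untreated arrays. For the 7 genes and their chromosome 4 neighbours, differences that move by more than 1.5 times without it are also given without it.

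SULT2A1 had the largest difference of the 7 genes. Its log2 values were 5.53, 6.05 and 5.37 on the leaf-treated arrays, against 6.90, 6.61 and 6.49 on the untreated arrays. The groups did not overlap, and the highest leaf-treated value, that of array 2, stayed below the lowest untreated value. The mean was 5.65 ± 0.36 in leaf-treated cells and 6.67 ± 0.21 in untreated cells (SD, n = 3 each). The difference was -1.02 on the log2 scale (standard error 0.20), which is 2.03-fold lower in leaf-treated cells. Of all tested clusters, 0.0467% had a difference as low as this or lower. The gene was chosen with this contrast known, so this share is a description and not a test. Array by array, leaf-treated arrays 1, 2 and 3 lay at -1.14, -0.61 and -1.30 from the untreated mean. The log2 difference was -1.22 without leaf-treated array 2 and between -1.11 and -0.88 when any other single array was left out. A bulk measurement cannot tell less of this RNA in every cell from fewer cells that make it.

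**Figure D1:**
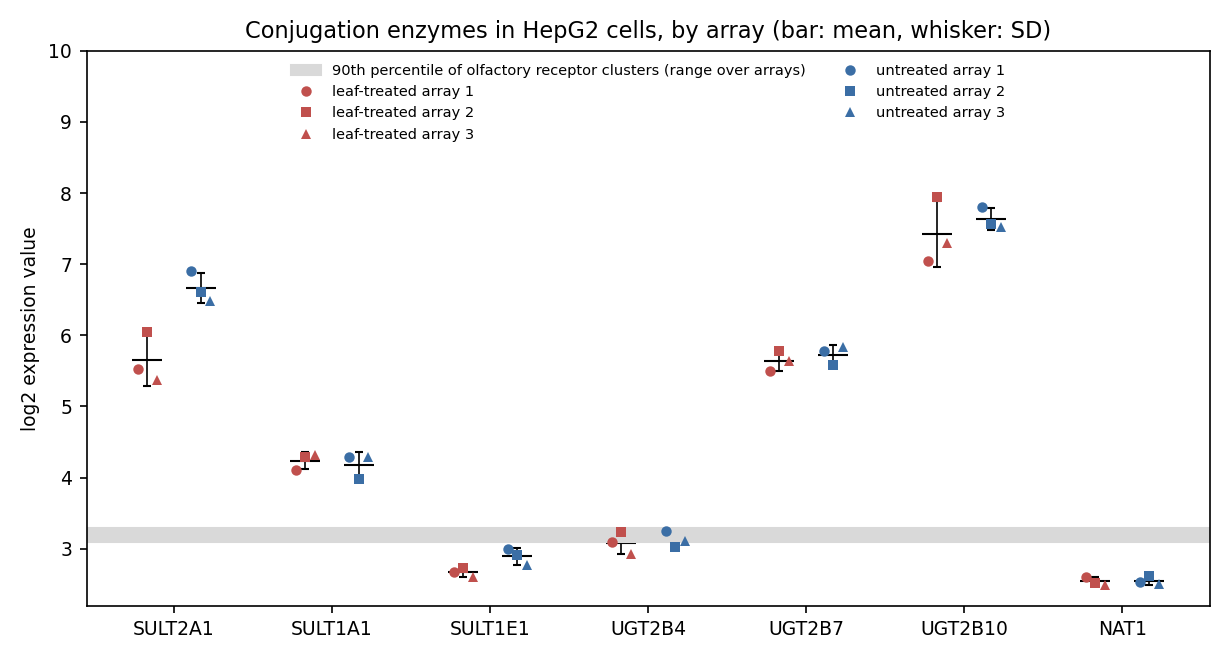
Log2 expression values of the 7 conjugation genes on each of the 3 leaf-treated and 3 untreated arrays, with group means (bars) and SD (whiskers), and the range of the olfactory receptor 90th percentile over the 6 arrays in grey. The leaf-treated points lie below all untreated points for SULT2A1 and for SULT1E1, whose 6 values all lie under the grey range.

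The upstream sequences of SULT2A1 and of the UGT2B genes with the clearest signal are shown because SULT2A1 differed between the groups and UGT2B7 and UGT2B10, which belong to the same branch of metabolism, overlapped between them. They are the 250 bases before the gene start given by RefSeq, on GRCh38.p14, printed 5′ to 3′ on the strand of the gene. SULT2A1 lies at chr19:47886316-47886565 on the minus strand, UGT2B7 at chr4:69096224-69096473 and UGT2B10 at chr4:68815744-68815993, both on the plus strand. Capitals mark every match to the 5 motifs named after the sequences.
SULT2A1: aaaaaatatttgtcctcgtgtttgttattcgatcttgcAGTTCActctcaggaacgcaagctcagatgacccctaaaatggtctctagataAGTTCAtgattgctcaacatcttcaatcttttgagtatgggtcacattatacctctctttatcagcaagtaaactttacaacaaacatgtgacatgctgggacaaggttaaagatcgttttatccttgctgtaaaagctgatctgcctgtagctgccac
UGT2B7: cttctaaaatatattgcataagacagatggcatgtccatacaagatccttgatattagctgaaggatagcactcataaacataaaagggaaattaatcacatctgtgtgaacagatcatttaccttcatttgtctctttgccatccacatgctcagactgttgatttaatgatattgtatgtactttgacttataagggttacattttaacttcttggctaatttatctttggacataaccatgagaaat
UGT2B10: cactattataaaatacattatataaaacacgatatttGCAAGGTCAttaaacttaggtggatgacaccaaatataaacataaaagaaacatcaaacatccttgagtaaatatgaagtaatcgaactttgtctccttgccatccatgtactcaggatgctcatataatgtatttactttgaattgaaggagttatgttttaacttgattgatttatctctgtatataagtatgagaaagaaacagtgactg

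The motifs were searched on both strands, namely the nuclear receptor half-sites AGTTCA and AGGTCA, the HNF1 half-site GTTAAT, the antioxidant response core TGACNNNGC and the xenobiotic response core GCGTG. SULT2A1 held AGTTCA at 2 places, 212 to 207 and 159 to 154 bases before the start. Of 35116 upstream regions of the same length, 8.8% held AGTTCA at least once. UGT2B10 held AGGTCA 210 to 205 bases before the start, and the capitals there also cover an overlapping match to TGACNNNGC on the other strand. These letters occur in 12.1% and 10.9% of all regions. UGT2B7 held none of the 5 motifs. SULT1E1, whose sequence is not shown because its signal was at background, held GTTAAT once on the other strand, as do 6.23% of all regions. A match is a run of letters and not a binding site.

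SULT1A1, which sulphates small phenols, had log2 values of 4.10, 4.29 and 4.32 in leaf-treated cells and 4.29, 3.98 and 4.29 in untreated cells. The groups overlapped, and the difference was 0.0526 (standard error 0.11). It was 0.0273 without leaf-treated array 2 and -0.0505 without untreated array 2, so it has no settled direction. The value 4.29 is identical in the deposited table on leaf-treated array 2 and on untreated arrays 1 and 3, and such repeats occurred in 41.1% of all tested clusters.

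SULT1E1, the sulphotransferase with the highest affinity for oestrogens, had log2 values of 2.67, 2.73 and 2.60 in leaf-treated cells and 3.002, 2.91 and 2.77 in untreated cells. The groups did not overlap, and the difference was -0.22 (standard error 0.0832). All 6 values were under the 90th percentile of the olfactory receptors on their array, so a signal of SULT1E1 above background was not shown in either group and the size of the difference cannot be read as a fold change of its RNA. NAT1 was also at this level, with log2 values of 2.61, 2.52 and 2.49 in leaf-treated cells and 2.53, 2.62 and 2.50 in untreated cells. Its groups overlapped, with a difference of -0.0108 (standard error 0.0676), and of -0.00162 without leaf-treated array 2.

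UGT2B10, which glucuronidates amines such as nicotine, was the UGT2B gene whose leaf-treated arrays were farthest apart. Its log2 values were 7.04, 7.94 and 7.30 in leaf-treated cells and 7.81, 7.56 and 7.53 in untreated cells. Leaf-treated arrays 1 and 3 were below every untreated array, while array 2 was above every one. The mean was 7.43 ± 0.46 in leaf-treated cells and 7.63 ± 0.15 in untreated cells (SD, n = 3 each), a difference of -0.20 (standard error 0.23). Without leaf-treated array 2 the difference was -0.46 (standard error 0.13), and without leaf-treated array 1 it was -0.00964, so a single array decides its size.

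UGT2B7, the main glucuronidating enzyme of morphine, had log2 values of 5.50, 5.77 and 5.64 in leaf-treated cells and 5.77, 5.58 and 5.84 in untreated cells. The groups overlapped and the difference was -0.0901 (standard error 0.10). Without leaf-treated array 2 it was -0.16, and with each other array left out in turn it lay between -0.17 and -0.0225. After quantile normalization it was -0.000786. UGT2B4, an enzyme of bile acid glucuronidation, had log2 values of 3.10, 3.24 and 2.92 in leaf-treated cells and 3.25, 3.02 and 3.11 in untreated cells. Only 3 of these 6 values exceeded the olfactory receptor line, and the difference was -0.0384 (standard error 0.11). It was -0.12 without leaf-treated array 2, 0.0437 without leaf-treated array 3 and 0.0231 without untreated array 1, so it has no settled direction. In all 3 UGT2B genes leaf-treated array 2 had the highest value of its group, as it had in SULT2A1.

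Counted together, 6 of the 7 genes had a difference under 0, as had 9027 of all 19291 tested clusters. The differences of UGT2B4, UGT2B7, UGT2B10 and NAT1 were smaller than their standard errors. The median of the 7 genes was -0.0901 on the log2 scale, against 0.0108 over all tested clusters. Over the tested clusters with a mean log2 value of at least 5 it was -0.101, so brighter clusters as a whole tended lower. The series' design sets 2 limits, a change of 1.5 fold or more and an unadjusted p under 0.05. Of all tested clusters 0.57% met this in the lower direction (110 of 19291) and 0.27% in the higher direction (52 of 19291). The split was 86 lower and 61 higher after quantile normalization, and 208 lower and 27 higher after each array was centred on its median. Without leaf-treated array 2 it was 323 lower and 167 higher. SULT2A1 was the 1 gene of the 7 past these limits. After Benjamini-Hochberg adjustment over all tested clusters with limma, 0.00518% of the clusters were called (1 of 19291) and none of the 7 genes. The leaf-treated arrays lay below all untreated arrays in 7.41% of the tested clusters and in 2 of the 7 genes, and above them in 6.14% and in 0 of the 7. Since this contrast chose the genes, nothing is read from these counts.

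**Figure D2:**
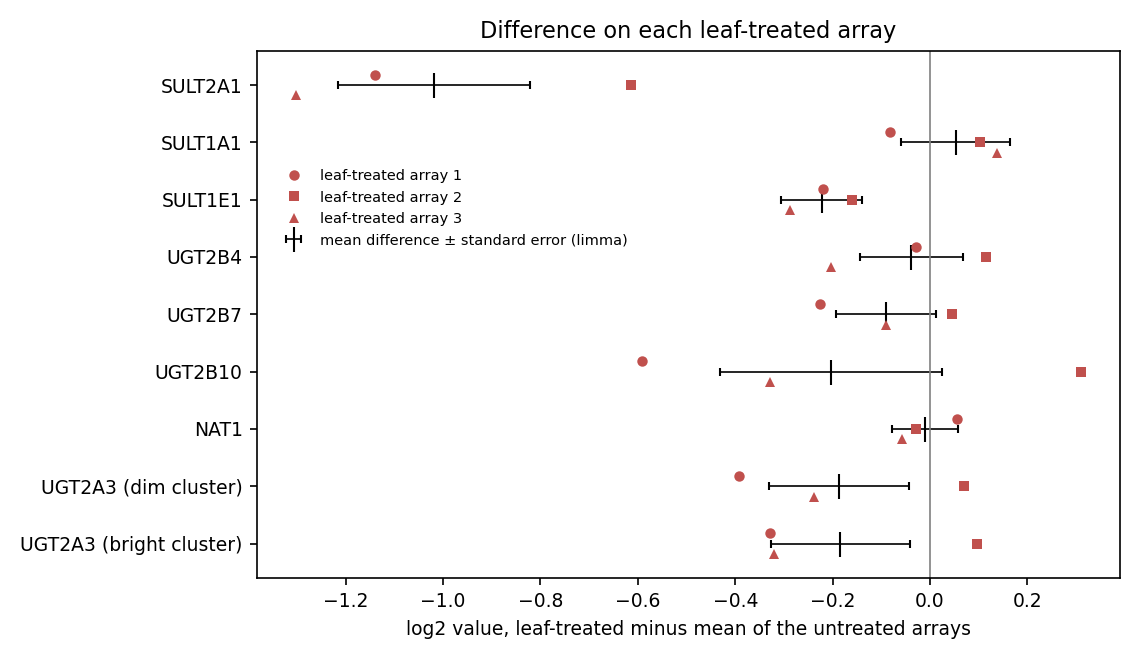
Log2 value of each leaf-treated array minus the mean of the untreated arrays, for the 7 genes and for both clusters of their neighbour UGT2A3, with the mean difference and its limma standard error in black. For SULT2A1 the 3 points lie between -1.30 and -0.61, and for UGT2B10 they fall on both sides of 0.

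Of the 7 genes, 4 lie in 1 stretch of chromosome 4. In GRCh38.p14 the protein-coding genes there are, in order, UGT2B10, UGT2A3, UGT2B7, UGT2B11, UGT2B28, UGT2B4, UGT2A2, UGT2A1, SULT1B1 and SULT1E1. The neighbour UGT2A3, a further glucuronosyltransferase that the choice of genes did not include, had its leaf-treated arrays in the same order as UGT2B10 in both of its clusters, with array 2 highest and array 1 lowest. In the brighter cluster its log2 values were 7.65, 8.07 and 7.66 in leaf-treated cells and 8.16, 7.89 and 7.89 in untreated cells. The difference was -0.18 (standard error 0.14, limma adjusted p = 0.64), and in the dimmer cluster -0.19 (standard error 0.14). Without leaf-treated array 2 the differences were -0.32 in both clusters. Leaf-treated arrays 1 and 3 were below every untreated array in both clusters of UGT2A3, and array 2 was within the untreated range. UGT2B28 and SULT1B1 were at the background level, with leaf-treated means of 2.60 and 2.70 and untreated means of 2.59 and 2.63. Their differences were 0.0186 and 0.0724, and without leaf-treated array 2 they were 0.0794 and 0.0996.

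The UGT2B genes are close paralogs, and 2 further clusters name UGT2B7 or UGT2B10 among several symbols. The first, annotated with UGT2B11, UGT2B17, UGT2B15, UGT2B10 and UGT2B7, had log2 values of 10.41, 10.84 and 10.47 in leaf-treated cells and 10.54, 10.48 and 10.41 in untreated cells. The second, annotated with LOC101929773, UGT2B28, UGT2B11, UGT2B17, UGT2B10, UGT2B7 and UGT2B4, had log2 values of 4.97, 5.30 and 5.11 in leaf-treated cells and 5.34, 5.11 and 5.29 in untreated cells. Both overlapped between the groups, with differences of 0.0948 (standard error 0.12) and -0.12 (standard error 0.11). Without leaf-treated array 2 they were -0.0389 and -0.21, so the first has no settled direction. Which paralog gives these signals, or takes part in the signals of the clusters with 1 symbol, cannot be told apart here.

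The rest of the pathway was taken from 7 lists made by function, with 98 genes in all. Of these, 71 had a cluster of their own and 27 did not. None of the 71 genes was called after limma's adjustment over all tested clusters. At an unadjusted p under 0.05, 3 were higher and 3 lower, against 3.87% and 5.9% of all tested clusters. Their median difference was 0.00188 on the log2 scale, beside 0.0108 over all tested clusters. The 1 gene past the limits of the series' design was SLC35D1, where 0.84% of all tested clusters passed in either direction.

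SLC35D1 carries UDP-glucuronic acid into the endoplasmic reticulum, where the UGT enzymes use it. Its log2 values were 6.43, 6.69 and 6.53 in leaf-treated cells and 7.04, 7.20 and 7.25 in untreated cells. The groups did not overlap. The difference was -0.62 (standard error 0.0965, adjusted p = 0.29 in the limma fit), or 0.652 times the untreated level. It was past the limits of the series' design in 12 of 15 other settings. The exceptions were quantile normalization (-0.49) and leaving out leaf-treated array 1 (-0.56) or untreated array 3 (-0.57). Some of the 12 changed only the p and left the difference at -0.62. These were the minimum mean log2 value of 5, the intensity trend and robust fit and the analysis of variance. All rows, the mean of a gene's clusters and the replicate block did the same. UGDH, the enzyme that makes UDP-glucuronic acid, had log2 values of 9.98, 10.12 and 10.09 in leaf-treated cells and 10.46, 10.30 and 10.37 in untreated cells. These groups did not overlap either, with a difference of -0.31 (standard error 0.0747, adjusted p = 0.39 in the limma fit). UGP2, the enzyme one step before UGDH, had a difference of -0.0499 (standard error 0.10).

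On the side of the sulphate donor, no gene was at an unadjusted p under 0.05 in limma. PAPSS1 and PAPSS2 make PAPS, and their log2 differences were 0.0778 (standard error 0.19) and 0.26 (standard error 0.16, adjusted p = 0.58 in the limma fit). Without leaf-treated array 2 they were -0.15 and 0.45, so that of PAPSS1 has no settled direction. PAPSS2 was dim, at a mean of 3.23 ± 0.33 in leaf-treated and 2.97 ± 0.0603 in untreated cells (SD, n = 3 each). The sulphate and PAPS carriers SLC26A1, SLC26A2, SLC35B2 and SLC35B3 had differences between -0.19 and 0.17. Without leaf-treated array 2 they were 0.27, -0.18, -0.12 and -0.26, in that order. That of SLC35B2, 0.0765 with every array, has no settled direction. The whole donor list, 10 measured genes of 11, had 2 lower and 0 higher at an unadjusted p under 0.05 and a median difference of -0.0335, where 5.9% of all tested clusters were lower and 3.87% higher at that level.

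**Figure D3:**
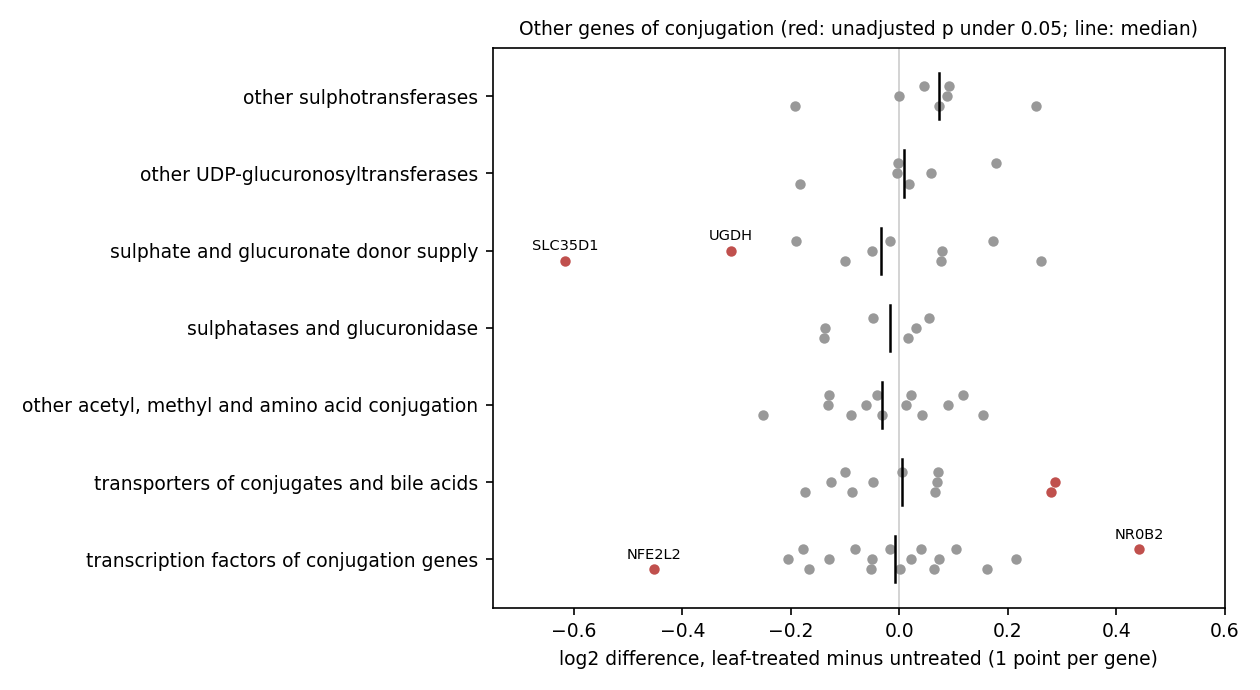
Log2 difference between leaf-treated and untreated cells for each of the 71 measured genes of the 7 pathway lists, with the median of each list as a black line and genes at an unadjusted p under 0.05 in red. SLC35D1, at -0.62, is the point farthest from 0, and every list median lies between -0.0335 and 0.0724.

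Among the other sulphotransferases 7 of 10 genes were measured and 0 were at an unadjusted p under 0.05 in limma. Those with the smallest p were SULT1C2, SULT1C4 and SULT2B1, with log2 differences of -0.19, 0.25 and 0.0884 and adjusted p between 0.598 and 0.651 from limma. For SULT1C4 the log2 values were 3.23, 3.83 and 3.18 in leaf-treated cells and 3.17, 3.15 and 3.15 in untreated cells, so that the groups did not overlap but leaf-treated arrays 1 and 3 were close to the untreated values, and the difference without array 2 was 0.0455. Among the other UDP-glucuronosyltransferases 6 of 19 were measured and 0 were at that level. The smallest p were those of UGT8, UGT2A3 and UGT2B17, and UGT8 and UGT2B17 were dim, with leaf-treated means of 2.95 and 2.66, untreated means of 2.77 and 2.60 and differences of 0.18 and 0.0579. The 9 UGT1A genes share 1 cluster, which was at 3.59, 3.24 and 3.32 in leaf-treated cells and 3.27, 3.30 and 3.28 in untreated cells and was not tested as a gene.

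The genes listed as sulphatases and glucuronidase had small differences. Of the 6 sulphatase and glucuronidase genes, all measured, 0 were at an unadjusted p under 0.05 in limma. GUSB, the lysosomal beta-glucuronidase, had a difference of -0.14 (standard error 0.0838, adjusted p = 0.57 in the limma fit), ARSG one of -0.14 and ARSB one of -0.0486. In the list of acetyl, methyl and amino acid conjugation, 13 of 17 genes were measured and 0 reached that level. NNMT, BAAT and ACSM3 had the smallest p, with differences of 0.15, 0.12 and -0.13, and NAT2, the liver paralog of NAT1, had a mean log2 value of 2.84 in leaf-treated and 2.97 in untreated cells.

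Among transporters, 11 of 12 genes were measured, of which 2 were higher and 0 lower at an unadjusted p under 0.05, beside 3.87% and 5.9% of all tested clusters. These were SLC51A, a subunit of the basolateral carrier of bile acids and steroid sulphates, and SLC10A6, which takes up steroid sulphates. SLC51A had log2 values of 3.57, 3.37 and 3.68 in leaf-treated cells and 3.29, 3.20 and 3.27 in untreated cells, and the groups did not overlap (difference 0.29, standard error 0.0937, adjusted p = 0.49 in the limma fit). SLC10A6 had a difference of 0.28 (standard error 0.0848, adjusted p = 0.47 in the limma fit). Both lie close to the background line, so these sizes are not firm. ABCC3, an efflux pump of glucuronides, had a difference of -0.17 and 1 repeated value, 4.51, on all 3 untreated arrays. ABCC2, the canalicular efflux pump of conjugates, had a difference of -0.0495 (standard error 0.12), and of -0.18 without leaf-treated array 2.

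Of the transcription factors tied to these genes, 18 of 23 were measured, with 1 higher and 1 lower at an unadjusted p under 0.05, beside the same 3.87% and 5.9%. NFE2L2, which encodes the oxidative stress regulator NRF2, had log2 values of 8.63, 8.74 and 8.73 in leaf-treated cells and 9.22, 9.04 and 9.21 in untreated cells. The groups did not overlap (difference -0.45, standard error 0.0782, adjusted p = 0.33 in the limma fit). NR0B2, the bile acid induced repressor SHP, had log2 values of 6.19, 6.69 and 6.26 in leaf-treated cells and 6.06, 5.78 and 5.98 in untreated cells. These did not overlap either (difference 0.44, standard error 0.15, adjusted p = 0.50 in the limma fit), and without leaf-treated array 2 the difference was 0.29. FOXA1, a factor of liver identity, had a difference of -0.17 (standard error 0.0720, adjusted p = 0.51 in the limma fit). The nuclear receptors NR1I3 and PPARA, which act on SULT2A1 in liver, had differences of 0.0635 and -0.0177.

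The hepatocyte secreted protein genes had smaller differences than SULT2A1, which was chosen with this contrast known, so nothing is read from that. Of 15 measured, 1 was higher and 1 lower at an unadjusted p under 0.05 (3.87% and 5.9% of all tested clusters), with a list median of -0.0717 and differences from -0.29 to 0.20. These were TTR at 0.19 and APOH at -0.20, and RBP4 was at -0.29 (adjusted p = 0.51 from limma for each). The genes of this list were bright, and over all tested clusters with a mean log2 value of at least 5 the median difference was -0.101. Markers of other cells were at 0 of 8 for fibroblasts, 0 of 5 for squamous epithelium and 0 of 5 for leukocytes at that level. Their medians were -0.0156, 0.20 and 0.0935. KRT5, KRT14 and KRT16 were at 0.20, 0.34 and 0.27, and CD14, CD68 and LYZ at 0.21, -0.22 and 0.12. COL1A1, COL1A2 and COL3A1 were at 0.24, 0.0420 and 0.34. The other fibroblast genes, DCN, LUM, THY1, PDGFRA and PDGFRB, lay between -0.0356 and -0.0151. On leaf-treated arrays 1, 2 and 3 the squamous median lay at 0.28, -0.0292 and 0.35 from the untreated mean. The olfactory receptor 90th percentile on these arrays, at 3.29, 3.11 and 3.30, had the same order. LYZ was bright in both groups, at a mean log2 value of 10.57 in leaf-treated and 10.46 in untreated cells, while PTPRC, the pan-leukocyte marker, was at 2.52 and 2.56. The part of these markers in the difference of SULT2A1 was not tested.

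The clusters whose pattern over the 6 arrays was most like that of SULT2A1 were sought among 5393 clusters with a mean log2 value of at least 5. They were PRMT3, HAT1, CAND1, DDX39A and NIP7, with Pearson correlations of 0.991 to 0.994 and log2 differences of -0.52 to -0.22. For the mean of the 7 genes they were APOBEC3B, PALB2, ZCCHC17, IFI30 and REEP3, with correlations of 0.995 to 0.998. The 6 arrays are 2 groups of 3, and the best of 5393 clusters will correlate highly over so few points, so these names are a description only.

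**Figure D4:**
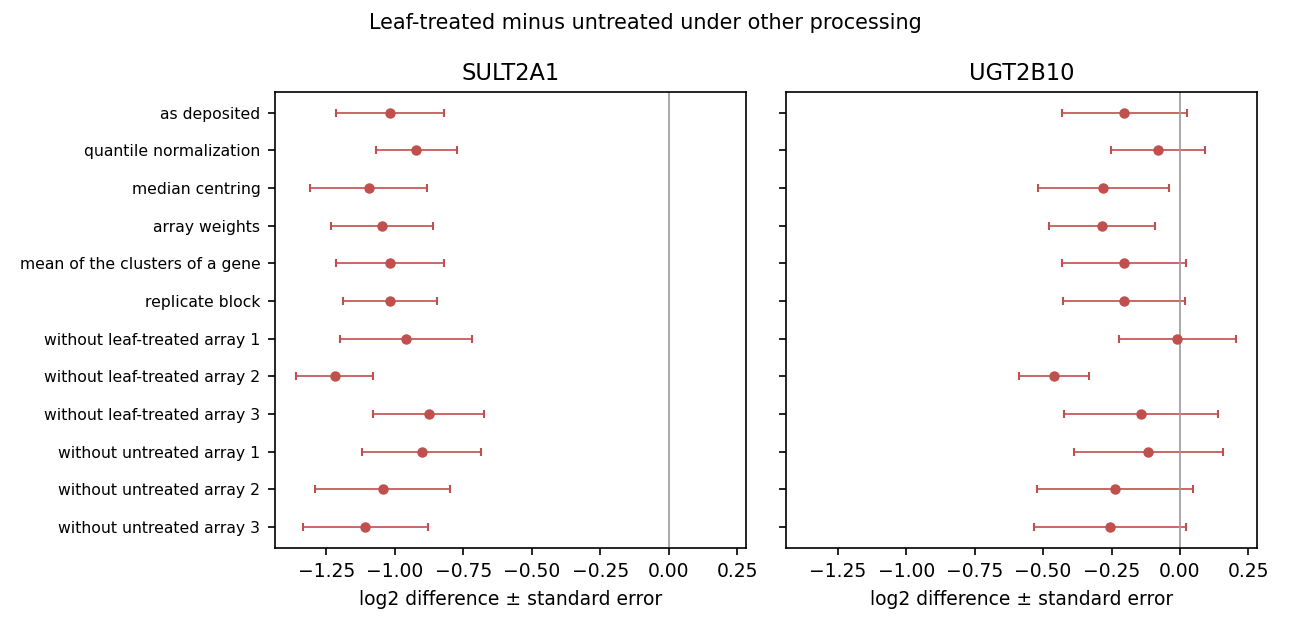
Log2 difference between leaf-treated and untreated cells with its limma standard error for SULT2A1 (left) and UGT2B10 (right), as deposited and under other normalizations, weights, pairing and omissions of 1 array. SULT2A1 lies between -1.22 and -0.88 throughout, and UGT2B10 between -0.46 and -0.00964.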

How the data were processed

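RNA of 3 leaf-treated and 3 untreated HepG2 samples was measured on 6 Human Gene 1.0 ST arrays of Affymetrix. The deposited values are the authors' log2 values per transcript cluster. GCOS, Partek and RMA are named in the submitters' processing notes. For the RMA options and the genome build, the sources used here state nothing. Of 33297 rows, 4468 were 0 on every array and were left out. The 19291 others with exactly 1 symbol were tested, and 1735 rows had several symbols and 7803 none. The groups were compared with limma 3.58.1 (lmFit, eBayes) in R 4.3.3, with Benjamini-Hochberg adjustment over all tested clusters and an adjusted p under 0.05 as a call. The fit was tested on simulated data. A gene of a list was taken by its brightest cluster. The members and the gene lists were chosen with earlier results of these data known. Named genes are the members, the 3 smallest p of each list, genes past the design's limits, and the 5 most alike in pattern. The others that are named (ALB, UGP2, PAPSS1, the sulphate and PAPS carriers, UGT2B28, SULT1B1, NAT2, ABCC2, NR1I3, PPARA, PTPRC, DCN, LUM, THY1, PDGFRA, PDGFRB) were added after their values were seen. The labels call the replicates biological and name no separate cultures, so p-values measure the spread between these samples. The number of arrays limits the precision. Alternatives were quantile normalization, median centring, a minimum mean log2 value of 5, array weights, a robust fit with an intensity trend, the analysis of variance named in the series' design, all rows, the mean of a gene's clusters, a replicate block, leaving out each array, and rows with several symbols. Leaving out leaf-treated array 2 for the neighbours, the rows with several symbols and the pathway genes was added after seeing the data.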

Additional observations from a re-analysis of the deposited data

How the results depend on the processing

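The count of called clusters, 1 in the fit as reported, was 8 after quantile normalization, 3 after median centring, 4 with a mean log2 value of at least 5, 2 with an intensity trend and robust fit, 3 with array weights, 0 by the analysis of variance that the series' design names, 2 over all rows above 0 and 2 with the mean of the clusters of a gene. It was 0 when any 1 array was left out (limma). The count past the limits of the series' design, 162 as reported, was 101 by the analysis of variance and 250 over all rows. Leaving out 1 array gave 111 to 490, the highest without leaf-treated array 2 (323 lower and 167 higher). The count of other pathway genes past these limits, 1 as reported (SLC35D1), was 0 after quantile normalization and 0 to 1 when 1 array was left out. With the replicate number as a block, 0 clusters were called and 165 were past the limits of the design. The labels do not say whether the replicate numbers pair the arrays. The deviations of same-numbered arrays correlated at -0.11, -0.18 and 0.12, so no strong shared effect of the number was seen. So few arrays cannot decide whether they were paired. The causes of these changes were not tested. SULT2A1 and SULT1E1 kept a negative difference in all 11 settings computed for them, at -1.22 to -0.88 and -0.30 to -0.17. UGT2B7, at -0.17 to -0.000786, and UGT2B10, at -0.46 to -0.00964, were also negative in all 11 but came near 0. SULT1A1, UGT2B4 and NAT1 changed sign in 2, 2 and 3 of the 11. The replicate block and the mean of a gene's clusters are among the 11 but could not change these differences. The groups are of equal size and each gene had 1 cluster. The count of members whose leaf-treated arrays all lay below all untreated arrays was 2 in each setting, except 3 without leaf-treated array 2. The share over all tested clusters was computed only for the deposited values with every array, where it was 7.41%. Groups with fewer arrays separate more easily, so nothing is read from the 3. Signals near the olfactory receptor line (SULT1E1, NAT1, UGT2B4) limit what can be said of those genes.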

Other observations

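Exact repeats of a value between arrays were common in the deposited table. Of the 19291 tested clusters, 41.1% had the same value on at least 2 of the 6 arrays, and 3.08% had 1 value on all 3 untreated arrays, against 1.52% on all 3 leaf-treated arrays. Among the 71 measured pathway genes 33 had a repeated value and 4 had 1 value on all 3 untreated arrays, so that their SD there was 0. SULT1A1 was the 1 member with a repeat. A group with 1 value on all its arrays adds no spread to the test of that cluster. How the repeats came about was not tested.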
